A study of Bos taurus with 15 samples.

Results

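BOLA-DRA (ENSBTAG00000010645), BOLA-DRB3 (ENSBTAG00000013919) and BOLA-DQB (ENSBTAG00000021077) are class II genes of the bovine major histocompatibility complex (MHC), named BoLA in cattle. They were taken by Ensembl ID from the raw count table and are 3 of its 27607 genes. The table gives IDs without symbols, so the 3 names are those paired with the IDs when the genes were chosen. Peripheral white blood cells (PWBC) were collected once, at weaning, from 15 Angus-Simmental crossbred heifers, and each heifer gave 1 RNA library. The animals were grouped later by breeding outcome as 8 heifers pregnant to artificial insemination (AI) and 7 not-pregnant heifers. All followed the same breeding protocol of estrus synchronization and fixed-time AI, with exposure to bulls afterwards, and no experimental treatment is described. The labels say of the not-pregnant heifers only that they were not pregnant to AI. The study's methods describe them as open after both AI and exposure to bulls.

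MHC class II molecules are pairs of an alpha and a beta chain that present peptides, mostly from engulfed material, to CD4+ T cells. In blood they are carried mainly by B cells, monocytes and dendritic cells, and neutrophils carry little. BOLA-DRA encodes the DR alpha chain, which varies little between animals. BOLA-DRB3 encodes the DR beta chain that pairs with it and is among the most polymorphic genes of cattle. BOLA-DQB encodes a beta chain of DQ, the other classical class II molecule, whose genes are polymorphic and differ in number between cattle haplotypes. Class II genes share promoter elements and a common activator, CIITA.

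The RefSeq gene table for the ARS-UCD2.0 assembly, a different build from that of the counts, lists all 3 symbols on one chromosome. It does not give Ensembl IDs, and it lists BoLA-DQB also as an older name of BOLA-DQB1, so the gene called BOLA-DQB here may be either of these. There the protein-coding genes run in the order BOLA-DQB, BOLA-DQA5, BOLA-DQB1, an unnamed DQA gene (LOC100848815), BOLA-DRB3, BOLA-DRB2 and BOLA-DRA. The table therefore holds 2 DQB genes and 2 DRB genes, and reads that fit both members of such a pair cannot be assigned to one of them. The counts of BOLA-DQB and BOLA-DRB3 are uncertain at least to that extent. Reads were aligned to a reference genome, and how fully alleles that differ from it were counted was not tested. Low or absent counts of these polymorphic genes, and their ratios to other genes, may therefore not reflect RNA level alone.

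Between 15987111 and 24909038 reads were counted on genes per heifer. Levels are given as CPM, the counts divided by library size and multiplied up to a common scale, after TMM scaling, which corrects each library for its composition, with factors between 0.842 and 1.14. The 3 genes were among the 12270 that passed the filter of at least 1 CPM in at least 8 heifers. Over all genes, the number called as different between the groups depended on single heifers. It was 718 with all heifers, 1856 without heifer 4, 1578 without heifer 37 and 2451 without both. Results for the class II genes are therefore also given without heifers 4 and 37. Leaving out any other single heifer lowered the number, to between 81 (heifer 48) and 646 (heifer 40).

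BOLA-DRA and BOLA-DRB3 were highly expressed in every heifer, whereas BOLA-DQB had no counts in heifer 3 and low counts in several others. BOLA-DRA had between 18771 and 47408 counts and BOLA-DRB3 between 14631 and 33432, so that the largest counting error of a single library was 0.730% and 0.827%. BOLA-DQB had between 0 and 6761 counts.

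**Figure D1:**
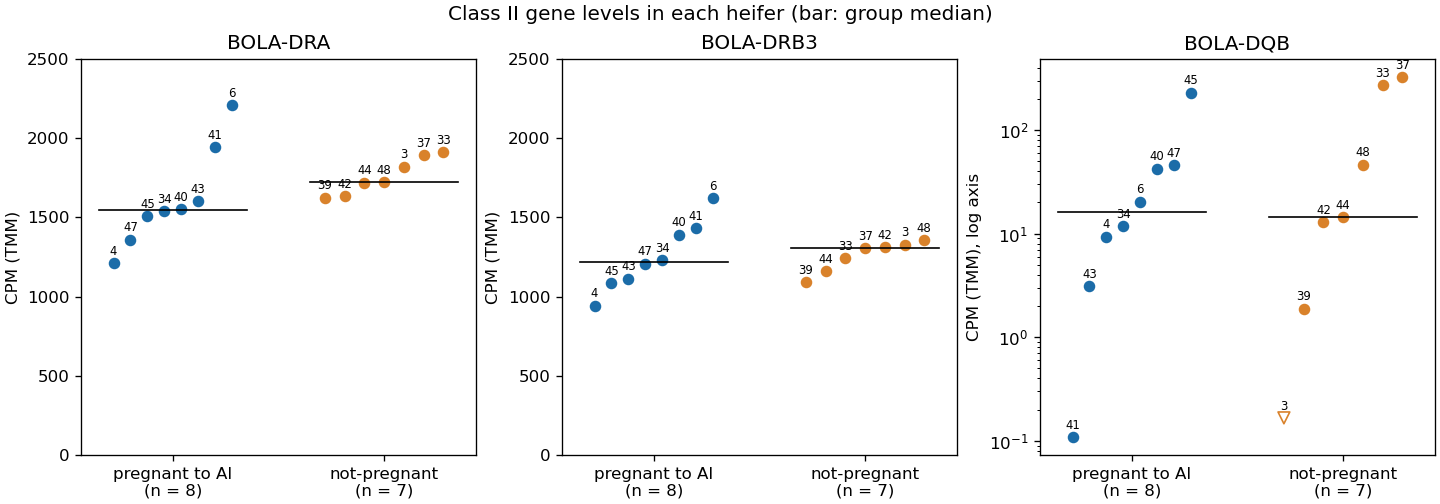
Level of BOLA-DRA, BOLA-DRB3 (CPM after TMM scaling, linear axes from 0) and BOLA-DQB (CPM, log axis) in each of 8 heifers pregnant to AI and 7 not-pregnant heifers; points are heifers with their number, and bars are group medians. The open triangle is heifer 3, which had 0 counts of BOLA-DQB and is drawn at the limit of 3 counts, and BOLA-DQB spans several orders of magnitude in both groups while the DR genes do not.

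In the 8 heifers pregnant to AI, BOLA-DRA had a lowest level of 1209 CPM in heifer 4, a median of 1544 CPM and a highest level of 2208 CPM in heifer 6. In the 7 not-pregnant heifers its lowest level was 1624 CPM, its median 1721 CPM and its highest 1910 CPM. The values of heifers pregnant to AI lay on both sides of the narrower range of the not-pregnant heifers, 6 below it, 2 above it (heifers 6 and 41) and 0 inside it. This arrangement depended on the scaling, since with library size alone 5 heifers pregnant to AI were inside that range. With TMM, 104 of the 12270 genes had no heifer pregnant to AI within the range of the not-pregnant heifers. On the log2 CPM scale the SD of heifers pregnant to AI was 0.27 and that of not-pregnant heifers 0.10, and this difference in spread was not tested.

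Heifers pregnant to AI had a mean BOLA-DRA level of 1615 CPM ± 319.1 (SD, n = 8), and not-pregnant heifers one of 1760 CPM ± 116.7 (SD, n = 7). The log2 fold change, pregnant to AI over not-pregnant, was -0.12 (standard error 0.11, 95% interval -0.36 to 0.12, edgeR adjusted p = 0.445). The difference in means was larger than the SD of the not-pregnant heifers and smaller than that of the heifers pregnant to AI, and it did not pass the test. It turned to 0.04 when libraries were scaled by size alone, under which the median gene shifted as well, from 0.01 to 0.18 on the log2 scale. In a mixture of blood cells, fewer class II-bearing cells and less RNA per cell cannot be told apart.

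BOLA-DRB3 ranged in heifers pregnant to AI from 942.3 CPM in heifer 4 through a median of 1218 CPM to 1621 CPM in heifer 6. In not-pregnant heifers it ranged from 1093 CPM in heifer 39 through a median of 1307 CPM to 1357 CPM in heifer 48. Heifers 4 and 6 were thus the lowest and the highest of all 15 for both DR genes, and the groups overlapped, with 3 heifers pregnant to AI inside the not-pregnant range. The means were 1253 CPM ± 218.4 (SD, n = 8) and 1256 CPM ± 97.2 (SD, n = 7), and the log2 fold change was -0.0044 (standard error 0.11, 95% interval -0.23 to 0.22, edgeR adjusted p = 0.981). The interval corresponds to a level between 0.852 and 1.17 times that of not-pregnant heifers. With library size alone the log2 fold change was 0.16 (edgeR adjusted p = 0.316).

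Across all 15 heifers the DR genes varied less than most genes. Their highest level was 1.83 times the lowest for BOLA-DRA and 1.72 times for BOLA-DRB3, against a median ratio of 2.03 over the 12270 genes, with values below 3 counts set to 3 counts. The standard deviation of log2 CPM was 0.22 for BOLA-DRA and 0.19 for BOLA-DRB3, against a median of 0.29 over all genes. Among the 129 genes within 1 log2 unit of its mean level, BOLA-DRA was at the 13.2 percentile of this standard deviation, and BOLA-DRB3 was at the 19.6 percentile among 184 genes. Neither gene showed a step. The widest gap between neighbouring heifers was below heifer 6 in both, 26.3% of the range for BOLA-DRA and 27.5% for BOLA-DRB3, near the middle of all genes (57.8 and 62.7 percentile).

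BOLA-DQB did show a wide gap on the CPM scale. In heifers pregnant to AI it had 2 counts in heifer 41, 67 in heifer 43, 145 in heifer 4, 291 in heifer 34, 419 in heifer 6, 778 in heifer 40, 804 in heifer 47 and 4549 in heifer 45. In not-pregnant heifers it had 0 counts in heifer 3, 35 in heifer 39, 222 in heifer 44, 230 in heifer 42, 625 in heifer 48, 5944 in heifer 37 and 6761 in heifer 33. Both groups held heifers with almost no counts, heifers with intermediate counts and 1 or 2 heifers far above the rest.

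On the CPM scale, heifers 37, 33 and 45 stood at 325.5, 272.4 and 229.0 CPM, and the next heifer, 48, at 46.5 CPM. This gap was 56.1% of the range, at the 98.7 percentile of all genes. On the log2 CPM scale it ran from 5.54 in heifer 48 to 7.84 in heifer 45. The gap there from heifer 41 (-2.22) to heifer 39 (0.99), both with low counts, was wider. Where the heifers divide therefore depends on the scale. Heifers 37, 33 and 45, 2 not-pregnant and 1 pregnant to AI, held 79.9% of the BOLA-DQB level summed over the 15 heifers. The 4 lowest heifers, 2 of each group, held 0.493% of it, with 3.12 CPM in heifer 43, 1.88 CPM in heifer 39, 0.109 CPM in heifer 41 and no counts in heifer 3. The remaining 8 heifers, 5 pregnant to AI and 3 not-pregnant, lay between 9.34 and 46.5 CPM.

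Part of this order is finer than counting error allows. With exact 95% binomial intervals, which cover counting error only, the intervals of neighbours in the order overlapped in 7 of 14 pairs. Such neighbours were heifers 3 and 41, heifers 39 and 43, heifers 4, 34, 42 and 44 in turn (9.34 to 14.4 CPM), and heifers 40, 47 and 48 in turn (42.4 to 46.5 CPM). The steps from heifer 41 to 39, from 43 to 4, from 44 to 6, from 6 to 40 and from 48 to 45 were larger than counting error, and so were those among the top 3. Heifer 37 was at least 1956-fold higher than heifer 3, taking 3 counts as the limit of a library with 0 counts. Against heifer 41, with 2 counts, the ratio was 2989 (95% interval 827.4 to 24681 from counting error).

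The standard deviation of log2 CPM of BOLA-DQB over the heifers, 3.41, was the third highest (rank 3) of 12270 genes. Its ratio of highest to lowest level, with 3 counts as the minimum, ranked 2, and 27 genes reached a ratio of 100.

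**Figure D2:**
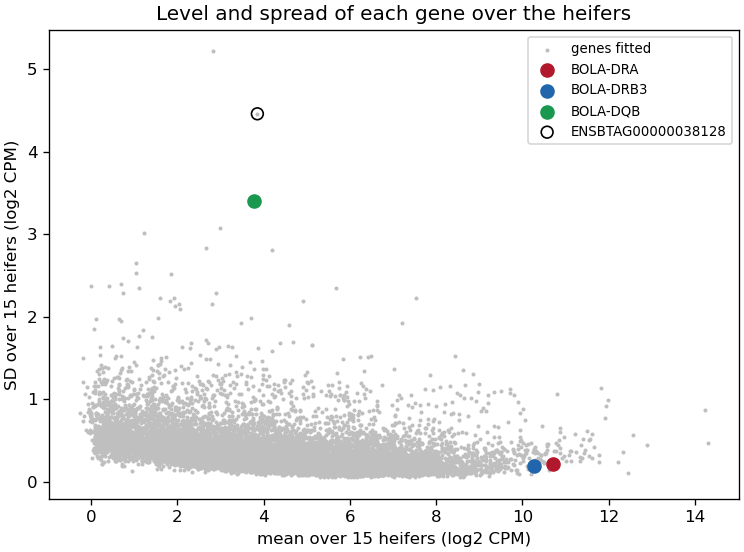
Mean (x axis, log2 CPM) and standard deviation (y axis, log2 CPM) over the 15 heifers for each of the 12270 genes tested, with the 3 class II genes filled and ENSBTAG00000038128 circled. BOLA-DQB, at 3.41, stands above all but 2 of the 3484 genes within 1 log2 unit of its level, and BOLA-DRA (0.22) and BOLA-DRB3 (0.19) lie within the band of highly expressed genes.

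The heifers with most and fewest BOLA-DQB counts did not stand apart in the DR genes. BOLA-DRA was between 1507 and 1910 CPM in the 3 highest heifers and between 1602 and 1945 CPM in the 4 lowest. For BOLA-DRB3 these ranges were 1084 to 1307 CPM and 1093 to 1434 CPM. Heifer 3, without a BOLA-DQB count, had 1819 CPM of BOLA-DRA and 1327 CPM of BOLA-DRB3, both above the median of the 15 heifers, in a library of 19493591 counts.

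BOLA-DQB averaged 45.2 CPM ± 76.2 (SD, n = 8) in heifers pregnant to AI, against 96.2 CPM ± 140.2 (SD, n = 7) in not-pregnant heifers. The medians ran the other way, 16.02 CPM in heifers pregnant to AI and 14.41 CPM in not-pregnant heifers. The log2 fold change was -1.09 (standard error 1.19, 95% interval -3.60 to 1.42, edgeR adjusted p = 0.529), and the interval runs from 0.0822 to 2.68 times. All 8 heifers pregnant to AI lay within the range of the not-pregnant heifers. The size of the difference rested on the 3 highest heifers. Leaving out heifer 37 gave -0.37, leaving out heifer 33 gave -0.57, leaving out heifer 45 gave -2.35 and leaving out both 4 and 37 gave -0.21, with edgeR adjusted p between 0.195 and 0.904. The difference in mean log2 CPM, a measure that high values pull less and near-zero counts pull more, was -0.23 with all heifers (two-sided exact permutation test, p = 0.911). Heifers 3 and 41 enter it at -3.24 and -2.22, values that depend on the count added before taking logs. Without heifers 33, 37 and 45, which were left out for their BOLA-DQB level, the difference in mean log2 CPM was 0.91. This removes 2 not-pregnant heifers and 1 pregnant to AI by the value compared, so it is given without a test.

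Of the 3 genes, edgeR called 0 as different between the groups (adjusted p at or below 0.05 together with a log2 fold change of 0.5 or more in size), against 5.85% of all genes tested. DESeq2 also called 0 of the 3, against 9.1% of all genes, and limma-voom called 0 of the 3, against 5.95% of all genes. At an unadjusted p under 0.05 the number was 0 of 3 in each tool, compared with 34.4% of all genes in edgeR. Without heifers 4 and 37, the log2 fold changes were -0.05 for BOLA-DRA and 0.06 for BOLA-DRB3. These data do not show that the levels were equal, since for BOLA-DQB in particular the interval includes large differences in both directions.

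**Figure D3:**
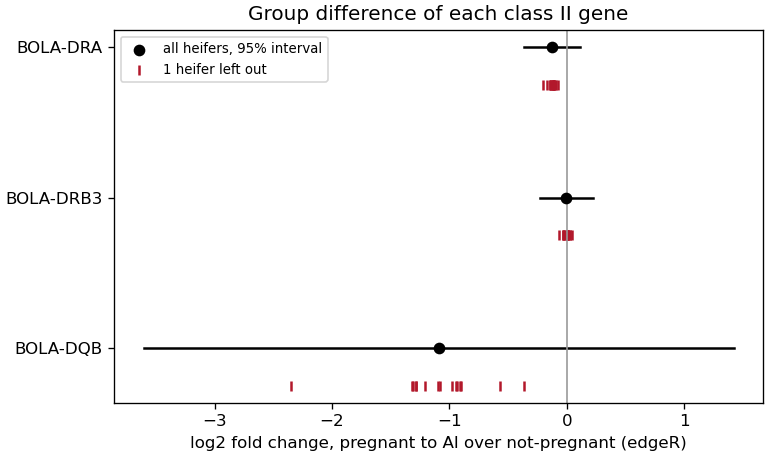
Log2 fold change, pregnant to AI over not-pregnant, of the 3 class II genes in edgeR (x axis), with black points and lines for all 15 heifers and their 95% interval and red ticks for fits with 1 heifer left out. All 3 intervals include 0, and that of BOLA-DQB (-3.60 to 1.42) is far wider than those of the DR genes.

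BOLA-DRA and BOLA-DRB3, whose products form the DR molecule, were correlated across heifers. Pearson's r of their log2 CPM was 0.771 (permutation test, p = 0.00124, adjusted p = 0.00372 over 3 pairs of genes) and Spearman's rho was 0.700 (permutation test, p = 0.00528, adjusted p = 0.0158), over 15 heifers. After each group was centred on its mean, r was 0.804 (permutation test, adjusted p = 0.00168). Within heifers pregnant to AI r was 0.866 (n = 8, exact permutation test, p = 0.0063, adjusted p = 0.0189). Their rho was 0.810 (exact permutation test, p = 0.0218, adjusted p = 0.0653), which did not pass after adjustment. Within not-pregnant heifers r was 0.376 (n = 7, exact permutation test, p = 0.410, adjusted p = 0.615). Their rho was 0.286 (exact permutation test, p = 0.556, adjusted p = 0.834). The difference in r between the groups was not tested. Heifers 4 and 6, the lowest and highest for both genes, are both in the group pregnant to AI. The r of that group was not taken without them.

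The size of r rested in part on heifers 4 and 6, the 2 farthest from the median of BOLA-DRA. Without them r was 0.455 (n = 13, permutation test, p = 0.117, adjusted p = 0.350) and rho was 0.538 (n = 13, permutation test, p = 0.0606), neither past the 0.05 limit. Without heifers 4 and 37 it was 0.658 (permutation test, adjusted p = 0.0517), and with any 1 heifer left out it stayed between 0.655 and 0.831, past the 0.05 limit each time. Among 12269 other genes, 39 had a higher r with BOLA-DRA than BOLA-DRB3 did, which ranked 40, and BOLA-DRA ranked 4 among the genes most like BOLA-DRB3.

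**Figure D4:**
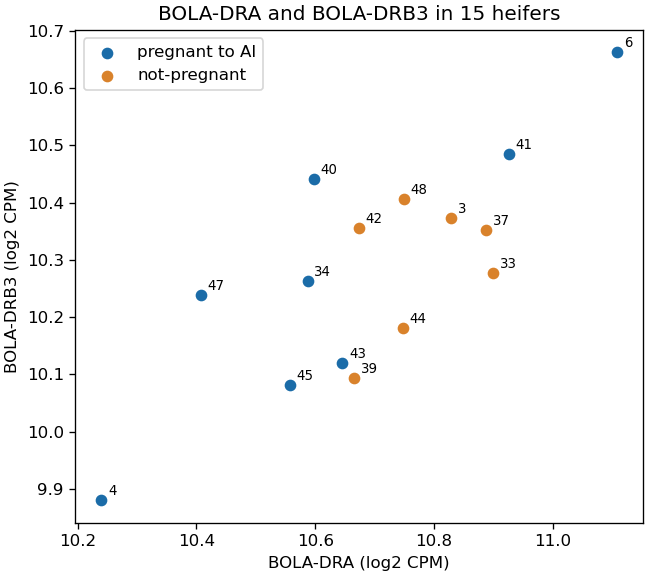
BOLA-DRA (x axis) against BOLA-DRB3 (y axis), both as log2 CPM, in the 15 heifers, coloured by group and numbered by heifer. The points rise together (r = 0.771), with heifer 4 at the lower left and heifer 6 at the upper right, and without these 2 r is 0.455.

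The ratio of BOLA-DRB3 to BOLA-DRA counts does not depend on library scaling. It ranged from 0.649 in heifer 33 to 0.897 in heifer 40 with a median of 0.734, and heifer 47 was close to the top with 0.889. The standard deviation of the log2 ratio was 0.14, well above the largest counting error of a single heifer (0.0159 on the log2 scale). Counting error does not include differences between alleles in how reads aligned, which were not tested. Its mean on the log2 scale was -0.36 ± 0.14 for heifers pregnant to AI (SD, n = 8) and -0.49 ± 0.12 for not-pregnant ones (SD, n = 7). The difference of 0.13 did not pass the test (two-sided exact permutation test over all arrangements of the heifers, p = 0.0848, adjusted p = 0.255 over 3 ratios). With each heifer left out it lay between 0.10 and 0.15.

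BOLA-DQB did not follow the DR genes detectably. Its r was -0.10 with BOLA-DRA (permutation test, p = 0.742, adjusted p = 0.792) and -0.08 with BOLA-DRB3 (permutation test, p = 0.792, adjusted p = 0.792), and rho was 0.0321 with each (permutation tests, adjusted p = 0.915). Because BOLA-DQB varied so widely, r was also taken within the 8 heifers between its highest and lowest sets, a division made on its own level. There r was 0.133 with BOLA-DRA and 0.476 with BOLA-DRB3. For each 100 counts of BOLA-DRA there were 17.2 of BOLA-DQB in heifer 37, 15.2 in heifer 45 and 14.3 in heifer 33, and at most 3.36 in any other heifer. The mean log2 ratio of BOLA-DQB to BOLA-DRA, with 0.5 added to each count, was -7.05 ± 3.30 for heifers pregnant to AI (SD, n = 8) and -7.17 ± 4.64 for not-pregnant ones (SD, n = 7; exact permutation test, p = 0.925, adjusted p = 0.991). For BOLA-DQB to BOLA-DRB3 the difference was -0.01 (exact permutation test, p = 0.991, adjusted p = 0.991).

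The gene whose pattern over the 15 heifers was most like that of BOLA-DQB was ENSBTAG00000038128, with an r of 0.891 and a rho of 0.842. It had 6846 counts in heifer 33, 4773 in heifer 37 and 4421 in heifer 45, the same 3 heifers that led for BOLA-DQB. It had 0 counts in heifers 3, 39 and 41 and 1 count in heifer 43, which were the 4 lowest for BOLA-DQB. In the other 8 heifers it had between 443 and 2270 counts. The 3 sets, cut on the level of BOLA-DQB, thus did not overlap in ENSBTAG00000038128 either. This gene was picked for its r with BOLA-DQB over the same heifers, which favours such agreement. Its upper set was not set far apart, with 123.7 CPM in heifer 40 and 222.6 CPM in heifer 45. Its middle set began at 28.7 CPM in heifer 44.

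Within the 8 heifers of the middle set the likeness was not seen, with an r of 0.20 and a rho of 0.0. That set was cut on BOLA-DQB itself, which narrows its range there. Without heifers 33, 37 and 45, but with the lowest heifers kept, r was 0.871. Without the heifers with 3 or fewer counts of ENSBTAG00000038128, but with heifers 33, 37 and 45 kept, it was 0.830. BOLA-DQB had 35 and 67 counts in heifers 39 and 43, where ENSBTAG00000038128 had 0 and 1. Over the 11 heifers in which ENSBTAG00000038128 had more than 3 counts, BOLA-DQB had between 0.135 and 1.25 counts for each of its counts. The standard deviation of log2 CPM of ENSBTAG00000038128 was 4.46, rank 2 of all genes, next to rank 3 of BOLA-DQB. ENSBTAG00000038128 was chosen by its likeness to BOLA-DQB, which is therefore given without a test.

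**Figure D5:**
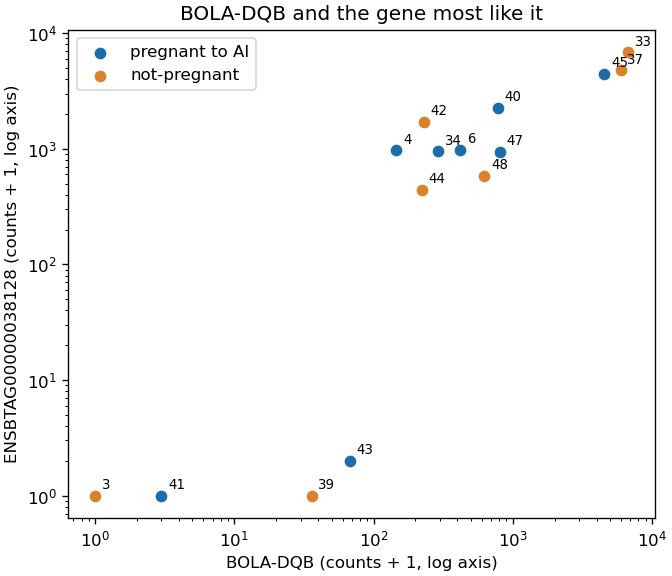
Counts of BOLA-DQB (x axis) and ENSBTAG00000038128 (y axis), each plus 1 on log axes, in the 15 heifers, coloured by group and numbered. Heifers 33, 37 and 45 lie at the upper right, heifers 3, 39, 41 and 43 along the bottom and the other 8 between them, with both groups in each set.

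Few other genes resembled BOLA-DQB. An r of at least 0.7 was reached by 5 of 12269 genes, against 87 for BOLA-DRA and 40 for BOLA-DRB3. The DR genes shared 1 gene among the 5 most like each, ENSBTAG00000012451, and shared none once each group was centred on its mean. The r of ENSBTAG00000012451 was 0.868 with BOLA-DRA, 0.770 with BOLA-DRB3 and -0.09 with BOLA-DQB. Its level was lowest in heifer 4 (288.0 CPM) and highest in heifer 6 (477.4 CPM). Its likeness to the DR genes was what it was chosen for.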

How the data were processed

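RNA of PWBC from 15 heifers was sequenced as paired-end 100 bp reads. Per the labels and the study's methods, the authors aligned reads with STAR 2.7.5 to the Ensembl Bos taurus genome (ARS-UCD1.2) and deposited raw counts per gene from STAR's gene counting, which leaves out reads with several alignments and which a mapping summary of the study labels as reverse stranded. The annotation release is not given in the sources used here. The authors also deposited CPM values, made with edgeR 3.28.1 over the 12270 genes left by their filter and without a composition factor.

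Genes reaching 1 CPM in 8 or more of the 15 heifers were kept from the raw counts. After TMM, edgeR 4.0.16 (R 4.3.3) tested the groups by quasi-likelihood, with pregnancy status as the only term. Genes were called where the p adjusted by Benjamini-Hochberg over all 12270 genes was 0.05 or less and the log2 fold change was 0.5 or more in size. Standard errors are that size over the square root of F, and 95% intervals use the test's degrees of freedom. Log2 CPM had a prior count of 2. Other tools were DESeq2 1.42.0, limma 3.58.1 and sva 3.50.0. Permutation tests (Python 3.11.15, numpy 2.4.6, scipy 1.17.1, pandas 2.3.3) were two-sided, as double the smaller tail, exact for differences between groups and for correlations within a group, and with 100000 resamples for correlations over 13 or more heifers. The fits were checked on simulated counts in which all genes had the same variability beyond counting error, and the permutation code on random values. Neither check included a gene as variable as BOLA-DQB. Libraries of one group differed by more than counting noise (chi-square per degree of freedom at least 35.8 over 49 pairs).

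The 3 genes and the lists were chosen with earlier results of these data known. Genes were named by rule as the 5 with the highest r to each member, of which 2 are printed by ID. No table used here pairs the Ensembl IDs with symbols (0 matches), so the planned lists of class II and class I pathway genes and of cell type markers, their correlations, gene lengths, positions and sequences were not analysed here, and levels were not corrected for gene length. Ratios between genes are of counts, to be compared between heifers and not read as relative transcript numbers. Heifers are named by the numbers in their labels.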

Additional observations from a re-analysis of the deposited data

Results flagged for a closer look

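Gaps between a heifer and the rest of its group were examined in 12 sets, the levels of the 3 genes and their 3 ratios in each group, and 1 set was flagged. Chance flags about 1 set in 20, so 1 flag among 12 sets is not unusual. The sets are also not independent, since the ratios reuse the counts of the same genes. Heifer 45 had 229.0 CPM of BOLA-DQB, the top of its group (pregnant to AI), and the next, heifer 47, had 45.6 CPM. The gap was 0.801 of the group's range on the linear CPM scale, above the critical value of 0.526 for 8 heifers. Ratios were examined on the log2 scale. There the gap of heifer 45 was 0.196 for BOLA-DQB to BOLA-DRA and 0.223 for BOLA-DQB to BOLA-DRB3, both below that value. The flag therefore rests on the linear scale. The not-pregnant heifers 33 and 37 had levels of the same order, 272.4 and 325.5 CPM, so that this level was not particular to heifer 45. Its BOLA-DRA level, 1507 CPM, was within the range of its group.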

How the results depend on the processing

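None of the 3 class II genes was called in any of the 29 fits across all genes, in which between 4 and 2451 genes were called. With library size only, and in limma with 1 or 0.5 added to the deposited CPM, none of which carries a composition factor, BOLA-DRA changed sign to 0.0364, 0.0183 and 0.0183 and BOLA-DRB3 to 0.16, 0.14 and 0.14. BOLA-DRB3 was also 0.0013 without a filter, 0.0566 without heifers 4 and 37, and between -0.0621 and 0.0453 with 1 heifer left out. BOLA-DQB kept its sign in every edgeR, DESeq2 and limma fit (-2.35 to -0.37 with 1 heifer left out), but was far closer to 0 in limma-voom (-0.11) and in limma on the deposited CPM (-0.29 and -0.24). Alternatives added after the data were seen gave BOLA-DQB a difference of -0.23 for mean and 0.0988 for median log2 CPM, and of 0.91 for the mean without heifers 33, 37 and 45. It was not fitted with the filter of 1 CPM in all heifers, which removes it.

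The difference in the ratio of BOLA-DRB3 to BOLA-DRA kept its sign and stayed short of the threshold in all settings. BOLA-DQB to BOLA-DRA turned to -0.0896 with a pseudocount of 2 and lay between -1.36 and 1.08 with 1 heifer left out. BOLA-DQB to BOLA-DRB3 was 0.76 without heifers 4 and 37 and lay between -1.49 and 0.94. The correlation of the DR genes lost its call in 2 settings, 0.658 without heifers 4 and 37 and 0.455 without heifers 4 and 6, both with fewer heifers. Those of BOLA-DQB with BOLA-DRA and BOLA-DRB3 changed sign by rank (0.0321 each), with library size only (0.0134 and 0.0414) and with the deposited CPM (0.0895 and 0.101). With 1 heifer left out they lay between -0.203 and 0.0524 and between -0.145 and 0.0811.

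The number of genes called over all genes was 718, with 1116 in DESeq2 with or without outlier handling, 448 without a filter, 107 with 1 surrogate variable, 4 and 92 with Bonferroni adjustment in edgeR and DESeq2, 2451 without heifers 4 and 37, and 81 to 1856 with 1 heifer left out, the extremes without heifers 48 and 4. No paired analysis was possible because each heifer belongs to 1 group. Depth limits the lowest BOLA-DQB values most, and counting error also leaves the order of some heifers with higher values unsettled.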
